A study of Mus musculus with 9 samples.

Results

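Axonemal dyneins are the motors of the sperm tail. The genes described here encode their heavy, intermediate and light chains and the cytoplasmic factors that build them. They were taken by name from the gene table of the study: every protein-coding row whose symbol begins with Dnah, Dnaic, Dnali, Dnal, Dnaf or Dnaaf followed by a number. This gave 24 genes of 54532 rows: 15 heavy chains, 2 intermediate chains, 3 light or light intermediate chains and 4 assembly factors. The antisense gene Dnah2os matched the name but is not protein-coding and was left out. By the deposited coordinates, on build GRCm38, the 24 genes lie on 11 chromosomes, with 4 on chromosome 1, 4 on chromosome 11 and 3 on chromosome 12.

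The moving axoneme carries rows of outer and inner dynein arms on its microtubule doublets. A heavy chain holds the ATP-driven motor, intermediate and light chains anchor and regulate it, and whole arms are assembled in the cytoplasm by dedicated factors before they are carried into the tail. In the testis many of these genes are switched on from meiosis onward, and the loss of several gives immotile or malformed sperm.

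RNA was sequenced in 9 libraries, 3 in each of 3 groups. In ClpP cKO libraries the gene for ClpP, the proteolytic part of a protease in the mitochondrial matrix, was deleted with Stra8-Cre, which acts in differentiating male germ cells. In ClpX cKO libraries the same driver removed ClpX, the ATP-dependent unfoldase that feeds that protease. The control libraries are labelled WT, and the labels do not say whether they carry Cre or floxed alleles. All libraries are labelled PD 35, titled as spermatocytes and typed as male germ cells. How the cells were isolated, and whether each library came from its own animal, is not stated, so the p-values reflect nothing more than the scatter of these 9 libraries, which may be technical.

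The libraries held 14334436 to 17021685 reads on genes. Each targeted gene was lower in its own knockout. Clpp stood at 5.16, 6.15 and 3.69 FPKM (reads per kilobase of gene, scaled for library depth, as deposited) in ClpP cKO libraries, against 9.36, 8.46 and 9.36 FPKM in controls. Clpx stood at 15.6, 11.3 and 13.2 FPKM in ClpX cKO libraries, against 59.3, 55.7 and 54.7 FPKM in controls. The other knockout differed from controls too: Clpx stood at 40.3, 36.2 and 36.0 FPKM in ClpP cKO, below all controls, and Clpp at 12.8, 12.5 and 14.1 FPKM in ClpX cKO, above all controls. Against their title, all libraries held spermatid RNA: 12 elongating spermatid markers summed to 4750 to 5693 FPKM in ClpP cKO, 1716 to 2658 FPKM in ClpX cKO and 8261 to 17982 FPKM in control libraries. The 12 Sertoli markers, of the somatic nurse cells, summed to 690.1 to 770.9 FPKM in ClpP cKO, 886.7 to 1210 FPKM in ClpX cKO and 494.5 to 513.9 FPKM in control libraries. On the first principal component of all genes, ClpX cKO 1 (19.1) lay nearer to the ClpP cKO libraries (-3.41 to 13.2) than ClpX cKO 2 and 3 did (54.7 and 55.5), and Control 3 (-39.2) lay towards the knockouts relative to Control 1 and 2 (-55.8 and -52.4).

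The levels of the 24 genes spanned 3 orders of magnitude. In controls the assembly factor Dnaaf1 was highest at 355 ± 15.3 FPKM and held 32.3% of the summed level of all 24 genes (SD, n = 3 here and below). Dnah8 followed at 147 ± 25.3 FPKM, then Dnali1 at 103 ± 1.96 FPKM, Dnah17 at 68.1 ± 3.54 FPKM, Dnaic1 at 48.6 ± 1.47 FPKM, Dnaaf3 at 46.4 ± 1.92 FPKM and Dnal4 at 41.4 ± 3.66 FPKM. The ranges of Dnaic1 and Dnaaf3 overlapped, and the other neighbours down to Dnal4 were separate. The next 12 genes, from Dnah2 at 35.1 FPKM to Dnah7b at 15.5 FPKM, lay close together, and 6 of their neighbouring pairs overlapped. Dnal1 (7.16 ± 0.307 FPKM) and Dnaaf2 (2.31 ± 0.375 FPKM) were low, and Dnah9, Dnah5 and Dnah11 averaged under 1 FPKM.

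**Figure D1:**
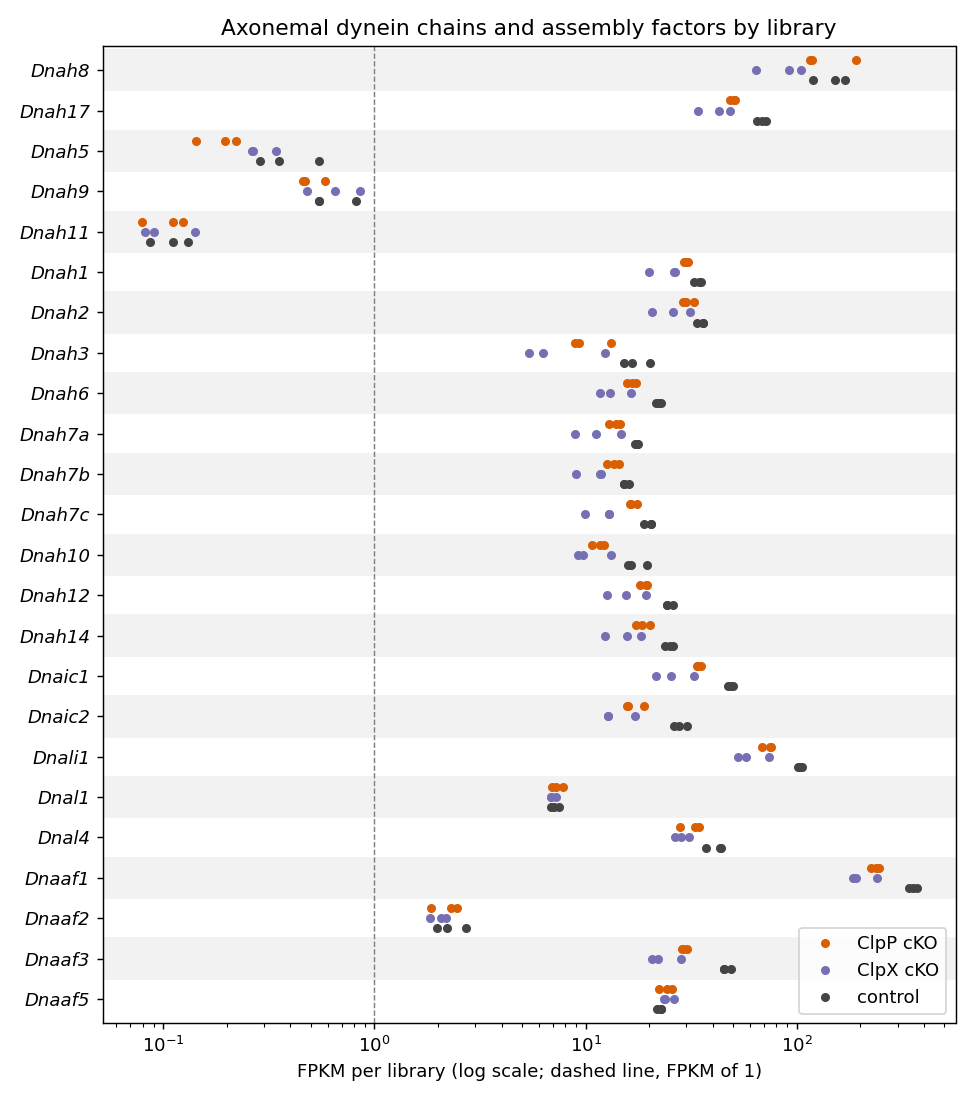
Level of each of the 24 genes in every library, in FPKM on a log axis, with ClpP cKO above ClpX cKO above control in each row. For most rows right of the dashed line at 1 FPKM the control points lie to the right of the knockout points, while Dnal1, Dnaaf2 and Dnaaf5 do not show this and Dnah5, Dnah9 and Dnah11 lie to the left of the line.

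Most of the expressed genes were lower in the knockouts. The 21 genes with a mean of at least 1 FPKM were tested with limma on log2(FPKM + 1), a scale that understates changes of low genes, with p-values adjusted by Benjamini-Hochberg over all 17266 genes tested and a threshold of 0.05. In ClpP cKO libraries 11 of the 21 fell and 0 rose, where 23.5% of the protein-coding genes tested were called lower and 25.8% higher. Their median log2 change was -0.37, beside 0.08 for all protein-coding genes. In ClpX cKO libraries 18 of the 21 fell and 0 rose, where 30.5% of the protein-coding genes were called lower and 40.1% higher, with a median of -0.67 beside 0.11. All 11 genes called in ClpP cKO are among the 18 called in ClpX cKO, but the comparisons share their controls. The fall was moderate: 3 genes in ClpP cKO and 13 in ClpX cKO were called and at least 1.5-fold lower, and at least 2-fold lower was reached by 0 genes in ClpP cKO and by 1, Dnah3, in ClpX cKO. In bulk RNA, fewer cells of a type and less RNA per cell cannot be told apart.

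The ClpP cKO count was sensitive to scaling, to single libraries and to the set of libraries in the fit. With only the 6 libraries compared, all 11 calls were kept and Dnah1, Dnah2, Dnah3, Dnah7a and Dnah7c were called lower too. That fit called 8538 of all genes in either direction, against 7722 with all 9 libraries. With each library scaled to its own total of gene reads, the median of all genes moved up to 0.16 in ClpP cKO and 0.18 in ClpX cKO; 4 of the 21 (Dnaaf1, Dnaaf3, Dnaic2 and Dnali1) were then called lower in ClpP cKO and 16 in ClpX cKO. The medians of the 21 relative to all genes were -0.35 in ClpP cKO and -0.64 in ClpX cKO on that scale, against -0.38 and -0.67 as deposited. They were -0.20 and -0.51 under quantile normalization, and -0.40 and -0.71 with limma voom on recovered reads. Over all genes, the share of calls that were higher was 71.4% on the own-total scale and 46.3% as deposited in ClpP cKO, and 63.3% and 49.0% in ClpX cKO. Without ClpP cKO 2, Control 2, Control 1 or ClpP cKO 3 the ClpP cKO count was 4, 6, 7 and 7. Calls over all genes dropped as well, from 7722 to 3617, 4888, 4190 and 4040 in the same order.

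**Figure D2:**
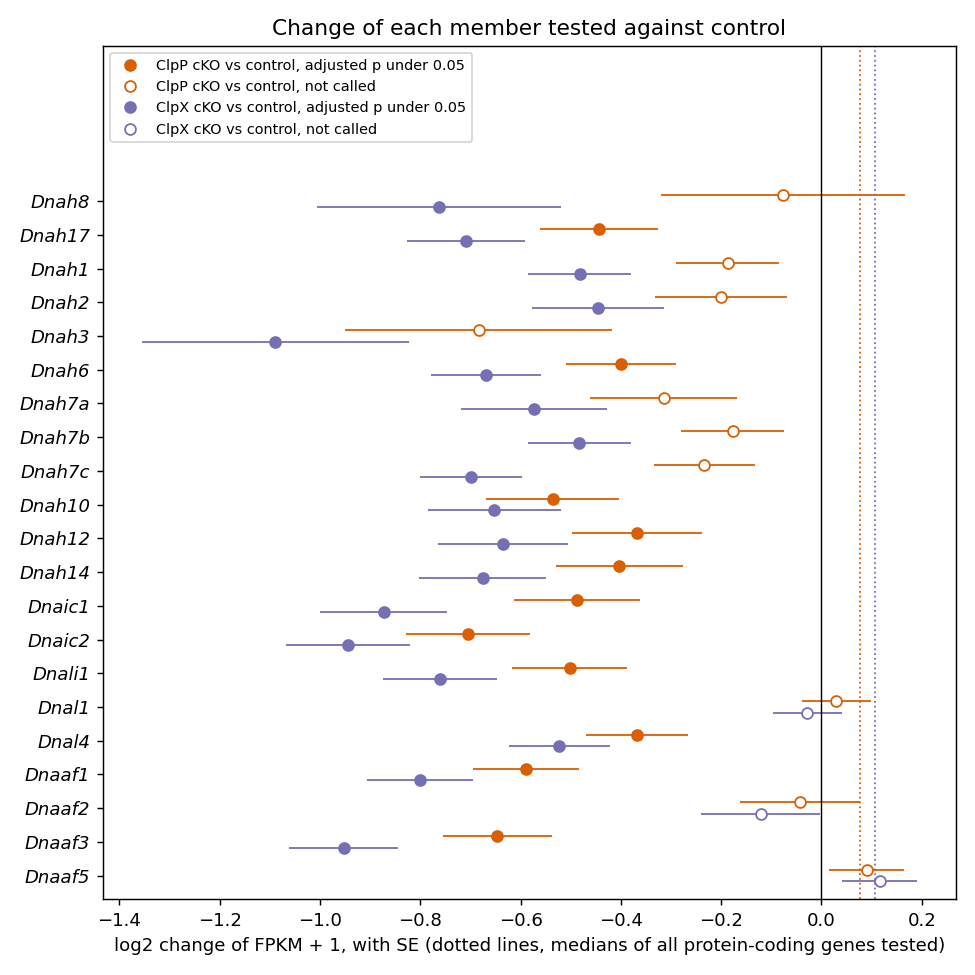
Log2 change of each of the 21 tested genes against control, with its standard error, for ClpP cKO (upper point of a row) and ClpX cKO (lower point); filled points passed the adjusted p of 0.05 and dotted lines mark the medians of all protein-coding genes tested. Filled points number 11 for ClpP cKO and 18 for ClpX cKO, all left of 0, and Dnal1, Dnaaf2 and Dnaaf5 stand near 0 in both.

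The outer arm heavy chains split into an expressed pair and 3 nearly silent genes. Dnah17 (chr11:118021723-118130634, minus strand), an outer arm heavy chain of the sperm tail, stood at 50.7, 48.1 and 50.4 FPKM in ClpP cKO and 48.5, 42.6 and 33.9 FPKM in ClpX cKO, against 64.5, 71.6 and 68.1 FPKM in controls. Every knockout library was below every control. Dnah17 fell by 0.44 on the log2 scale in ClpP cKO (SE 0.12, limma adjusted p = 0.019) and by 0.71 in ClpX cKO (SE 0.12, adjusted p = 0.0011). Its ClpP cKO call held under 14 of 20 alternative settings and its ClpX cKO call under all 20.

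Dnah8 (chr17:30624354-30875264, plus strand), the other outer arm heavy chain of sperm, was more variable. Its levels were 190.1, 119 and 115 FPKM in ClpP cKO and 91.5, 105 and 64.0 FPKM in ClpX cKO, against 152, 169 and 119 FPKM in controls. ClpP cKO 1 was the highest library of all, ClpP cKO 2 and 3 lay at or just under Control 3, and all ClpX cKO libraries were below the controls. Dnah8 differed by -0.08 in ClpP cKO (SE 0.24, limma adjusted p = 0.81) and fell by 0.76 in ClpX cKO (SE 0.24, adjusted p = 0.022). Without ClpX cKO 3 the ClpX cKO call was lost, as it was without Control 1 or Control 2. It was also lost with no filter on low values (adjusted p = 0.0523), on the scale of the libraries' own totals of gene reads (adjusted p = 0.064) and under quantile normalization, where Dnah8 differed by -0.19 (adjusted p = 0.48). The ratio of Dnah8 to Dnah17 was 3.75 in ClpP cKO 1, 2.46 and 2.29 in the other ClpP cKO libraries, 1.89, 2.47 and 1.89 in ClpX cKO and 2.35, 2.36 and 1.75 in controls. Dnah8 held 37.9% of the summed heavy chain level in ClpP cKO, 31.3% in ClpX cKO and 33.0% in controls.

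Dnah5, Dnah9 and Dnah11 encode outer arm heavy chains known from the motile cilia of airway and other epithelia. Their summed level was 0.682 to 0.906 FPKM in ClpP cKO, 0.834 to 1.28 FPKM in ClpX cKO and 0.920 to 1.48 FPKM in controls. Reads per library were 37 to 117 for Dnah5, 116 to 229 for Dnah9 and 18 to 35 for Dnah11. Dnah5 was at 0.196, 0.222 and 0.142 FPKM in ClpP cKO, against 0.286, 0.352 and 0.549 FPKM in controls, without overlap. With no filter on low values, it differed by -0.23 (SE 0.08, limma adjusted p = 0.10), and none of these 3 genes was called in any comparison.

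The 15 heavy chain genes are long, with 61 to 93 exons in their longest annotated transcripts and spans of 63522 to 381885 bases. The 10 beyond the outer arm set are mostly motors of the inner arms, and all 10 fell in ClpX cKO. Dnah3 (chr7:119922671-120095280, minus strand) moved most. It stood at 13.2, 8.92 and 9.28 FPKM in ClpP cKO and 12.3, 5.42 and 6.27 FPKM in ClpX cKO, against 16.5, 15.2 and 20.1 FPKM in controls. The knockouts did not overlap the controls, and ClpP cKO 1 and ClpX cKO 1 were the highest knockout libraries. Dnah3 fell by 1.09 in ClpX cKO (SE 0.27, limma adjusted p = 0.0067), and its -0.68 in ClpP cKO missed the threshold (SE 0.27, adjusted p = 0.064). That difference was called with protein-coding genes only (adjusted p = 0.046), with only the 6 libraries compared (adjusted p = 0.017) and with the replicate number as a block (adjusted p = 0.036). It was also called without ClpX cKO 1 (adjusted p = 0.010) and without both Control 3 and ClpX cKO 1 (adjusted p = 0.027). The ratio of Dnah3 to Dnah1 was 0.450, 0.293 and 0.312 in ClpP cKO, 0.465, 0.206 and 0.313 in ClpX cKO and 0.505, 0.443 and 0.571 in controls.

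Dnah10 and Dnah2 are the heavy chains of the double-headed inner arm, and their values differed. Dnah10 (chr5:124725085-124834308, plus strand) stood at 12.3, 10.7 and 11.7 FPKM in ClpP cKO and 13.2, 9.70 and 9.18 FPKM in ClpX cKO, against 15.9, 16.4 and 19.4 FPKM in controls. No knockout library reached a control. Dnah10 fell by 0.54 in ClpP cKO (SE 0.13, limma adjusted p = 0.016) and by 0.65 in ClpX cKO (SE 0.13, adjusted p = 0.0028). Dnah2 was at 29.1, 32.6 and 29.8 FPKM in ClpP cKO and 31.3, 25.8 and 20.5 FPKM in ClpX cKO, against 33.7, 35.9 and 35.9 FPKM in controls. Its groups did not overlap either, but its change was smaller: -0.20 in ClpP cKO (SE 0.13, adjusted p = 0.23) and a fall of 0.45 in ClpX cKO (SE 0.13, adjusted p = 0.016). The Dnah2 call in ClpX cKO was lost on the own-total scale. The ratio of Dnah10 to Dnah2 was 0.422, 0.328 and 0.392 in ClpP cKO, 0.420, 0.376 and 0.447 in ClpX cKO and 0.471, 0.456 and 0.542 in controls.

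Dnah6, Dnah12 and Dnah14 fell in both knockouts. Dnah6, a single-headed inner arm motor, was at 17.4, 16.6 and 15.7 FPKM in ClpP cKO and 16.4, 13.02 and 11.7 FPKM in ClpX cKO, against 21.5, 22.3 and 22.7 FPKM in controls. The log2 changes of Dnah6, Dnah12 and Dnah14 were -0.40, -0.37 and -0.40 in ClpP cKO, with limma adjusted p of 0.021, 0.047 and 0.032. In ClpX cKO they were -0.67, -0.63 and -0.68, with adjusted p of 0.0010, 0.0028 and 0.0019. The ClpP cKO calls of Dnah6, Dnah12 and Dnah14 held under 12, 8 and 10 of 20 alternative settings. Dnah1, an inner arm heavy chain whose loss in men gives malformed sperm tails, was at 29.3, 30.4 and 29.7 FPKM in ClpP cKO and 26.5, 26.3 and 20.05 FPKM in ClpX cKO, against 32.7, 34.3 and 35.3 FPKM in controls. Its groups were separate, with -0.19 in ClpP cKO (SE 0.10, adjusted p = 0.16) and a fall of 0.48 in ClpX cKO (SE 0.10, adjusted p = 0.0035).

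Dnah7a, Dnah7b and Dnah7c, the mouse counterparts of human DNAH7, are an inner arm family on chromosome 1. Their longest annotated transcripts share 40.3%, 48.4% and 48.5% of their 50-base words with other genes, mostly with each other, so their separate values are uncertain. Their summed level was 44.0, 46.6 and 41.8 FPKM in ClpP cKO and 39.5, 35.8 and 27.8 FPKM in ClpX cKO, against 51.2, 53.9 and 53.1 FPKM in controls. The sums of the knockouts lay below all controls. Dnah7a, Dnah7b and Dnah7c differed by -0.31, -0.18 and -0.23 in ClpP cKO, none called (limma adjusted p = 0.11, 0.18 and 0.089). All 3 fell in ClpX cKO, by 0.57, 0.48 and 0.70 (adjusted p = 0.0082, 0.0035 and 0.00065).

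Among the intermediate chains, Dnaic1 and Dnaic2 both fell in both knockouts. They encode the outer arm subunits also called DNAI1 and DNAI2, which hold the heavy chains at the arm's base. Dnaic1 (chr4:41569775-41638158, plus strand) stood at 33.8, 34.0 and 35.2 FPKM in ClpP cKO and 32.5, 25.2 and 21.5 FPKM in ClpX cKO, against 47.0, 48.7 and 49.97 FPKM in controls. Dnaic2 (chr11:114727408-114757889, plus strand) stood at 18.9, 15.8 and 15.9 FPKM in ClpP cKO and 17.1, 12.8 and 12.7 FPKM in ClpX cKO, against 26.2, 30.1 and 27.8 FPKM in controls. For both genes every knockout library was below every control, and ClpX cKO 1 was the highest ClpX cKO library. Dnaic1 fell by 0.49 in ClpP cKO (SE 0.13, limma adjusted p = 0.017) and by 0.87 in ClpX cKO (SE 0.13, adjusted p = 0.00064). Dnaic2 fell by 0.70 in ClpP cKO (SE 0.12, adjusted p = 0.0086) and by 0.94 in ClpX cKO (SE 0.12, adjusted p = 0.00050). The Dnaic2 calls held under all 20 alternative settings in both knockouts.

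The promoters of both intermediate chains hold an X-box, the letters that RFX factors, regulators of ciliary genes, are known to bind. RefSeq windows of 300 bases (250 before and 50 after a start, GRCm38.p6) were matched for 22 of the 24 genes. The X-box was taken as GTNRCC, a spacer of 0 to 3 bases and RGYAAC, searched on both strands. In these letters N is any base, R is A or G and Y is C or T. So defined, the X-box was in 3 of the 22 windows: those of Dnaic1, Dnaic2 and the assembly factor Dnaaf2. It was in 1.71% of 16497 protein-coding genes with a window. The 3 windows are shown because they are the ones with a match, Dnaic1 at chr4:41569544-41569843 (plus strand), Dnaic2 at chr11:114727169-114727468 (plus strand) and Dnaaf2 at chr12:69198380-69198679 (minus strand). Each is read 5′ to 3′ on the gene's strand, and capitals mark the X-box, which starts 19, 33 and 17 bases before the annotated start.
Dnaic1: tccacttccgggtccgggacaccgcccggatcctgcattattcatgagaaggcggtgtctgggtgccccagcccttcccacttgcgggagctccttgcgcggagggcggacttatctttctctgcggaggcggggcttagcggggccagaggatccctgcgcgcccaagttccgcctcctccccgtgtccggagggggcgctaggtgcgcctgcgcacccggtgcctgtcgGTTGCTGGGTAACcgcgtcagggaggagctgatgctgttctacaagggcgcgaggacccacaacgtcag
Dnaic2: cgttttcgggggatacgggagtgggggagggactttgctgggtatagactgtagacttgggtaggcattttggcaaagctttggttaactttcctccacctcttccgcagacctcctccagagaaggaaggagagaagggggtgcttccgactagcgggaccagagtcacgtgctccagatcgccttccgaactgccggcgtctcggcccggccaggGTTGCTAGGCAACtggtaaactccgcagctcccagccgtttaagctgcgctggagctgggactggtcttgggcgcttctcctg
Dnaaf2: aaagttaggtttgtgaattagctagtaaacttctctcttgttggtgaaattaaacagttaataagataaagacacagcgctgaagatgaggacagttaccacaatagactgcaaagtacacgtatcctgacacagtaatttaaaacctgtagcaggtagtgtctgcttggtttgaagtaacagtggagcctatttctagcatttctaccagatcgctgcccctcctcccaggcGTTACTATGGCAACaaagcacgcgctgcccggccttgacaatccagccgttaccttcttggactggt

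Of the genes with an X-box, Dnaic1 and Dnaic2 were called lower in both knockouts and Dnaaf2 was not called in either. Dnaaf2 rests on 102 to 132 reads a library, and a difference in change between these genes was not tested. The shorter letters GTTGCC, searched on both strands, were in 7 of the 22 windows, beside 14.1% of protein-coding genes. In Dnaic2 and Dnaaf2 they lie inside the X-box, and the others are Dnah7a, Dnah7b, Dnah7c, Dnah10 and Dnaaf5. The palindrome TGACGTCA, the letters that CREB and CREM factors are known to bind, was in 1 window, that of Dnah6, beside 2.64% of protein-coding genes. The RefSeq starts of Dnah8, Dnah12, Dnah17, Dnah7b and Dnal4 lie 538 to 3382 bases from the start in the deposited table, so their windows may not be the promoters used here.

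Of the light chains, Dnali1 and Dnal4 fell in both knockouts and Dnal1 in neither. Dnali1 (chr4:125055338-125065703, minus strand), the light intermediate chain of single-headed inner arms, stood at 75.5, 74.8 and 68.2 FPKM in ClpP cKO and 73.6, 57.5 and 52.7 FPKM in ClpX cKO, against 101.5, 103 and 105 FPKM in controls. Controls were tightly grouped above all knockouts. Dnali1 fell by 0.50 in ClpP cKO (SE 0.11, limma adjusted p = 0.012) and by 0.76 in ClpX cKO (SE 0.11, adjusted p = 0.00075). Dnal4, an axonemal light chain, was at 28.1, 33.0 and 34.5 FPKM in ClpP cKO and 30.8, 28.1 and 26.4 FPKM in ClpX cKO, against 43.4, 43.6 and 37.1 FPKM in controls. Its groups did not overlap, and its log2 change was -0.37 in ClpP cKO (SE 0.10, adjusted p = 0.021) and -0.52 in ClpX cKO (SE 0.10, adjusted p = 0.0022). The Dnal4 calls held under 13 of 20 alternative settings in ClpP cKO and 19 of 20 in ClpX cKO.

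Dnal1, whose Chlamydomonas counterpart binds the motor domain of an outer arm heavy chain, was at 6.93, 7.81 and 7.26 FPKM in ClpP cKO and 6.87, 6.88 and 7.26 FPKM in ClpX cKO, against 6.88, 7.49 and 7.11 FPKM in controls. The groups overlapped throughout. Its log2 difference was 0.03 in ClpP cKO (95% interval -0.13 to 0.19, limma adjusted p = 0.74) and -0.03 in ClpX cKO (-0.18 to 0.13, adjusted p = 0.74). The end of Dnal1 overlaps Pnma1 on the opposite strand, and strand-specific counting is not stated, so reads of the overlap cannot be assigned. The ratio of Dnal1 to Dnali1 was 0.0918, 0.104 and 0.106 in ClpP cKO and 0.0933, 0.120 and 0.138 in ClpX cKO, against 0.0678, 0.0724 and 0.0674 in controls.

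The assembly factors divided in the same way, with Dnaaf1 and Dnaaf3 lower and Dnaaf2 and Dnaaf5 not called. Dnaaf1 (chr8:119575235-119598454, plus strand), a leucine-rich repeat protein needed to preassemble dynein arms, stood at 238, 225 and 245 FPKM in ClpP cKO and 239, 191 and 184 FPKM in ClpX cKO, against 356, 370 and 339 FPKM in controls. Dnaaf3 (chr7:4522933-4532453, minus strand), which acts in the same cytoplasmic assembly, stood at 30.2, 28.6 and 28.9 FPKM in ClpP cKO and 28.4, 20.5 and 22.1 FPKM in ClpX cKO, against 45.4, 45.1 and 48.6 FPKM in controls. For both factors the knockouts lay below all controls. Dnaaf1 fell by 0.59 in ClpP cKO (SE 0.11, limma adjusted p = 0.0086) and by 0.80 in ClpX cKO (SE 0.11, adjusted p = 0.00051). Dnaaf3 fell by 0.65 in ClpP cKO (SE 0.11, adjusted p = 0.0086) and by 0.95 in ClpX cKO (SE 0.11, adjusted p = 0.00045). Both Dnaaf3 calls held under all 20 alternative settings, and both Dnaaf1 calls were lost under quantile normalization, where its changes were -0.03 and -0.12. Dnaaf3 overlaps Tnni3 on the same strand and the antisense gene Gm15873, which averaged 16.7 and 8.07 FPKM.

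Dnaaf5 (chr5:139150223-139186510, plus strand), a HEAT-repeat assembly factor, was at 22.1, 24.3 and 25.6 FPKM in ClpP cKO and 23.4, 26.3 and 23.6 FPKM in ClpX cKO, against 21.9, 22.8 and 22.7 FPKM in controls. All ClpX cKO libraries were above the controls, while ClpP cKO overlapped them. Its difference of 0.09 in ClpP cKO (SE 0.07, limma adjusted p = 0.33) and 0.12 in ClpX cKO (SE 0.07, adjusted p = 0.20) was not called, but it was called higher in both knockouts on the own-total scale. Dnaaf2, an early-acting assembly factor, was at 1.85, 2.46 and 2.31 FPKM in ClpP cKO and 2.07, 2.19 and 1.83 FPKM in ClpX cKO, against 2.72, 1.99 and 2.21 FPKM in controls, from 102 to 132 reads a library. Its groups overlapped, with -0.04 (SE 0.12, adjusted p = 0.78) in ClpP cKO and -0.12 (SE 0.12, adjusted p = 0.39) in ClpX cKO. The Dnaaf2 transcript shares 37.9% of its 50-base words with other genes, mostly the overlapping Gm49383 and Gm49384, so its level is uncertain. The ratio of Dnaaf5 to Dnaaf1 was 0.0932, 0.108 and 0.105 in ClpP cKO and 0.0980, 0.138 and 0.128 in ClpX cKO, against 0.0614, 0.0617 and 0.0670 in controls.

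**Figure D3:**
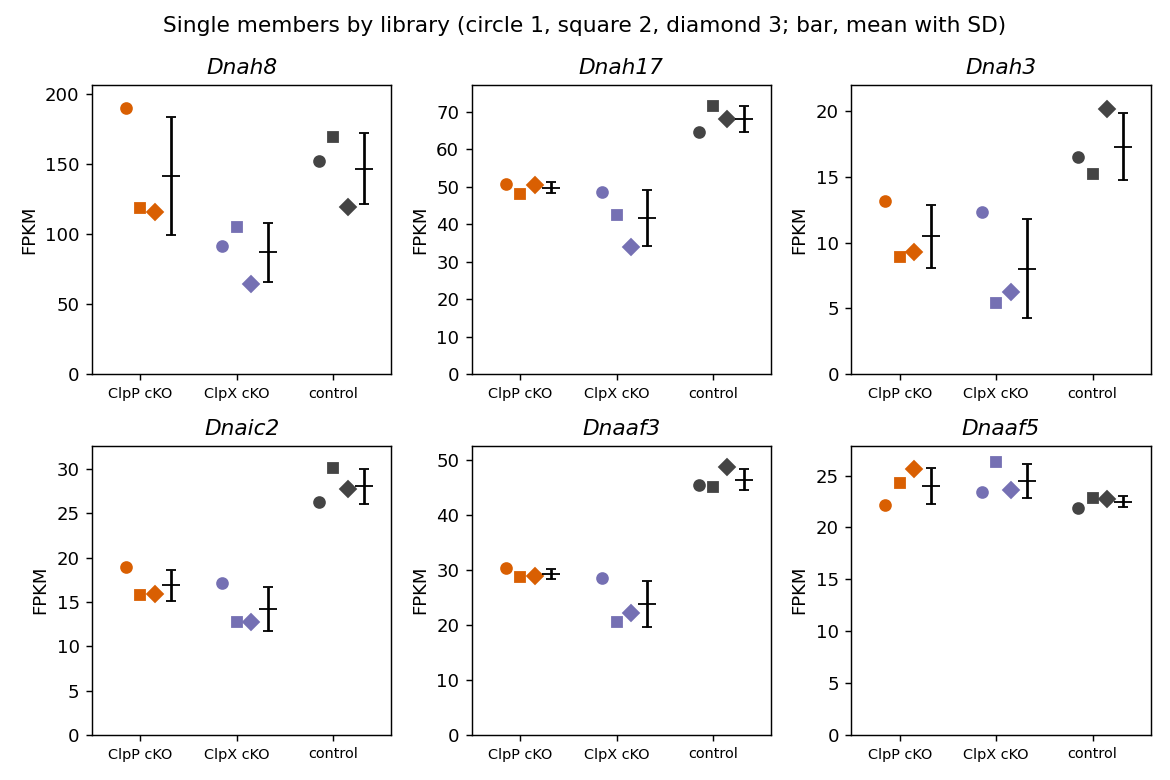
FPKM of 6 genes in each library (circle, square and diamond for libraries 1, 2 and 3), with the group mean and SD beside the points, each axis starting at 0. Dnah17, Dnaic2 and Dnaaf3 show knockouts below all controls, Dnah8 shows ClpP cKO 1 above every other library, Dnah3 shows the first knockout libraries above the others of their group, and Dnaaf5 shows no lower knockout group.

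Summed by role, intermediate chains stood lowest against controls. They summed to 51.2 ± 1.49 FPKM in ClpP cKO and 40.6 ± 8.02 FPKM in ClpX cKO, against 76.6 ± 2.93 FPKM in controls. Light chains summed to 112 ± 3.10 FPKM in ClpP cKO and 96.7 ± 12.97 FPKM in ClpX cKO, against 152 ± 2.46 FPKM in controls. Assembly factors summed to 291 ± 10.8 FPKM in ClpP cKO and 255 ± 33.0 FPKM in ClpX cKO, against 426 ± 13.4 FPKM in controls. These 3 roles were separate from controls in every knockout library, but the assembly factor sum is mostly Dnaaf1. All heavy chains summed to 373 ± 45.8 FPKM in ClpP cKO and 278 ± 51.9 FPKM in ClpX cKO, against 444 ± 24.3 FPKM in controls, and ClpP cKO 1 at 425 FPKM reached Control 3 at 424 FPKM through its Dnah8. By count, 5 of 12 tested heavy chains and 6 of the 9 other genes fell in ClpP cKO, where 23.5% of protein-coding genes were called lower. In ClpX cKO 12 of 12 and 6 of 9 fell, where 30.5% of protein-coding genes were called lower. The sums are given as a description, with no test.

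The fall was not even across the ClpX cKO libraries. The median ratio of the 21 genes to their control mean was 0.781, 0.798 and 0.740 in ClpP cKO libraries 1 to 3 and 0.740, 0.630 and 0.510 in ClpX cKO libraries 1 to 3, against 0.969, 1.02 and 1.01 in controls. ClpX cKO 1 thus lay among the ClpP cKO libraries and ClpX cKO 3 was lowest. ClpX cKO 1 held the highest ClpX cKO value for 17 of the 21 genes, and ClpX cKO 3 the lowest for 17. By non-overlap of libraries, 17 of the 21 genes were lower and 0 higher in ClpP cKO, where 29.5% of protein-coding genes were lower and 38.3% higher. In ClpX cKO 18 were lower and 1, Dnaaf5, was higher, where 32.3% of protein-coding genes were lower and 43.2% higher.

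Set against each other, ClpX cKO was not separated from ClpP cKO by the test. The mean of ClpX cKO was below that of ClpP cKO for 20 of the 21 genes, with a median log2 difference of -0.26 beside 0.03 for all protein-coding genes, and Dnaaf5 was the exception. Limma called 0 of the 21, where 0.0312% of the protein-coding genes were called lower and 0.0312% higher. An unadjusted p under 0.05 was reached by 7 of the 21, all lower in ClpX cKO, and by 4801 of all 17266 genes tested. The largest difference was that of Dnah8, at -0.69 (95% interval -1.24 to -0.13, adjusted p = 0.12). Dnah7c, at -0.47 (-0.70 to -0.24), had the lowest adjusted p of the 21, at 0.081. In 6 of the 21 genes the groups did not overlap, all lower in ClpX cKO, where 13.6% of protein-coding genes were lower in that way and 18.5% higher. This comparison rested on ClpX cKO 1. Without it limma called 15 of the 21 lower in ClpX cKO, along with 4758 of all genes in either direction. With voom on reads recovered from the FPKM values, Dnah7c alone was called among the 21, along with 828 of all genes.

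Other parts of the dynein machinery were examined beside these genes, on the deposited scale. Of 15 tested axonemal dynein subunits outside the naming rule, 9 fell and 0 rose in ClpP cKO (median -0.52), and 9 fell and 2 rose in ClpX cKO (median -0.44). Nme8, a thioredoxin-domain intermediate chain, averaged 28.7 FPKM in ClpP cKO and 21.4 FPKM in ClpX cKO, against 59.4 FPKM in controls. It fell by 1.03 in ClpP cKO (SE 0.16, limma adjusted p = 0.0086) and changed by -1.46 in ClpX cKO (SE 0.16, adjusted p = 0.00045), past every one of the 21 genes. Wdr78, an inner arm intermediate chain, fell by 0.54 in ClpP cKO and 0.78 in ClpX cKO. Tctex1d1, a light chain of the Tctex family, averaged 5.80 FPKM in ClpP cKO and 2.58 FPKM in ClpX cKO, against 11.4 FPKM in controls, and fell by 1.80 in ClpX cKO (SE 0.23, adjusted p = 0.00047).

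The 7 genes that dock or attach the outer arm all fell in both knockouts, with medians of -0.54 in ClpP cKO and -0.83 in ClpX cKO. Ccdc151, part of the docking complex, fell by 0.48 in ClpP cKO and 0.60 in ClpX cKO, and Ttc25, another docking subunit, by 0.54 and 0.83. The nexin-dynein regulatory complex, which links doublets beside the inner arms, had 8 of 10 tested genes lower in ClpP cKO (median -0.51) and 10 of 10 in ClpX cKO (median -0.73). Drc1, its scaffold, fell by 0.47 in ClpP cKO and 0.74 in ClpX cKO. Of 17 other assembly factors, 6 fell and 2 rose in ClpP cKO (median -0.21), and 14 fell and 2 rose in ClpX cKO (median -0.47). Spag1, an assembly cochaperone, fell by 0.52 and Ccdc40, which sets the spacing of inner arms, by 0.53 in ClpP cKO, and by 0.63 and 0.80 in ClpX cKO. Ruvbl1 and Rpap3, general chaperone-complex subunits named here after their values were seen, were the 2 that rose in each knockout, Rpap3 by 0.33 in ClpP cKO and 0.60 in ClpX cKO.

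Cytoplasmic dyneins move cargo in the cell body and along the growing axoneme. Of 9 genes for their heavy, intermediate and light intermediate chains, 1 fell and 1 rose in ClpP cKO (median -0.03), and 2 fell and 2 rose in ClpX cKO (median -0.07). Light chains of the Dynll, Dynlrb and Dynlt families, which both kinds of dynein share, are counted with the 15 axonemal subunits above, and the difference between the lists was not tested. Dync1li1, a cargo-binding light intermediate chain, rose by 0.36 in ClpP cKO and 0.48 in ClpX cKO, and Wdr60, an intermediate chain of the intraflagellar transport motor, fell by 0.30 and 0.52. Of 10 transcription regulators of cilia and spermatids, 6 fell in ClpP cKO (median -0.42) and 9 in ClpX cKO (median -0.64), and 0 rose. Foxj1, a regulator of motile cilium genes, averaged 18.2 FPKM in ClpP cKO and 16.6 FPKM in ClpX cKO, against 34.4 FPKM in controls, and fell by 0.89 and 1.04. Rfx1, of the family that binds the X-box, fell by 0.74 in ClpP cKO (SE 0.17, limma adjusted p = 0.013). Rfx2, of the same family and at a higher level, differed less. It stood at 67.0, 62.4 and 69.1 FPKM in ClpP cKO and 58.8, 54.6 and 48.9 FPKM in ClpX cKO, against 77.9, 77.1 and 73.1 FPKM in controls. Crem, a driver of spermatid genes, fell by 0.45 in ClpP cKO and 0.71 in ClpX cKO.

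Spermatid and spermatocyte markers were lower in the knockouts beside the dynein genes, and spermatogonial markers were mostly higher. The 12 elongating spermatid markers all fell in both knockouts, with medians of -1.24 in ClpP cKO and -2.33 in ClpX cKO, and the round spermatid markers fell in 11 and 12 of 12 (medians -0.78 and -1.21). The pachytene and diplotene markers fell in 9 and 10 of 12 (medians -0.45 and -0.70), the nearest of these marker lists to the dynein genes' -0.37 and -0.67. Single genes of that list were spread widely, from -1.09 to 0.24 in ClpP cKO and from -1.74 to -0.07 in ClpX cKO. Of the spermatogonial markers 8 rose in ClpP cKO (median 0.42), and in ClpX cKO 10 rose and 1 fell (median 0.69). The 12 Sertoli markers all rose in both (medians 0.54 and 0.98). The other somatic lists held 0 of 8 Leydig, 2 of 7 stromal and 3 of 7 immune markers higher in ClpP cKO, and 2, 5 and 7 in ClpX cKO, with 0 lower. The part of cell makeup in the fall of the dynein genes was not tested.

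Multiciliated cells of the efferent ducts also make axonemal dyneins. Of their 10 markers, 5 were tested and 3 fell in each knockout: Foxj1, Deup1 and Fam183b. The summed level was 92.8 to 119 FPKM in ClpP cKO, 59.1 to 104 FPKM in ClpX cKO and 173 to 190.1 FPKM in controls. Ccno (0.826 to 1.79 FPKM over the 9 libraries) and Ccdc78 (means of 2.31 FPKM in ClpP cKO and 1.76 FPKM in ClpX cKO, against 2.21 FPKM in controls) were tested and not called, and the other 5 markers averaged under 1 FPKM. Of these, Mcidas, Gmnc, Cdhr3 and Sntn stayed at or below 0.158 FPKM in every library, and Sntn was at 0 in all but Control 3. The remaining one, Tmem212, averaged under 1 FPKM, and its levels by library are not given here. Foxj1, Deup1 and Fam183b averaged 34.4, 79.1 and 63.9 FPKM in controls. The part of these cells in the fall of the dynein genes was not tested.

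**Figure D4:**
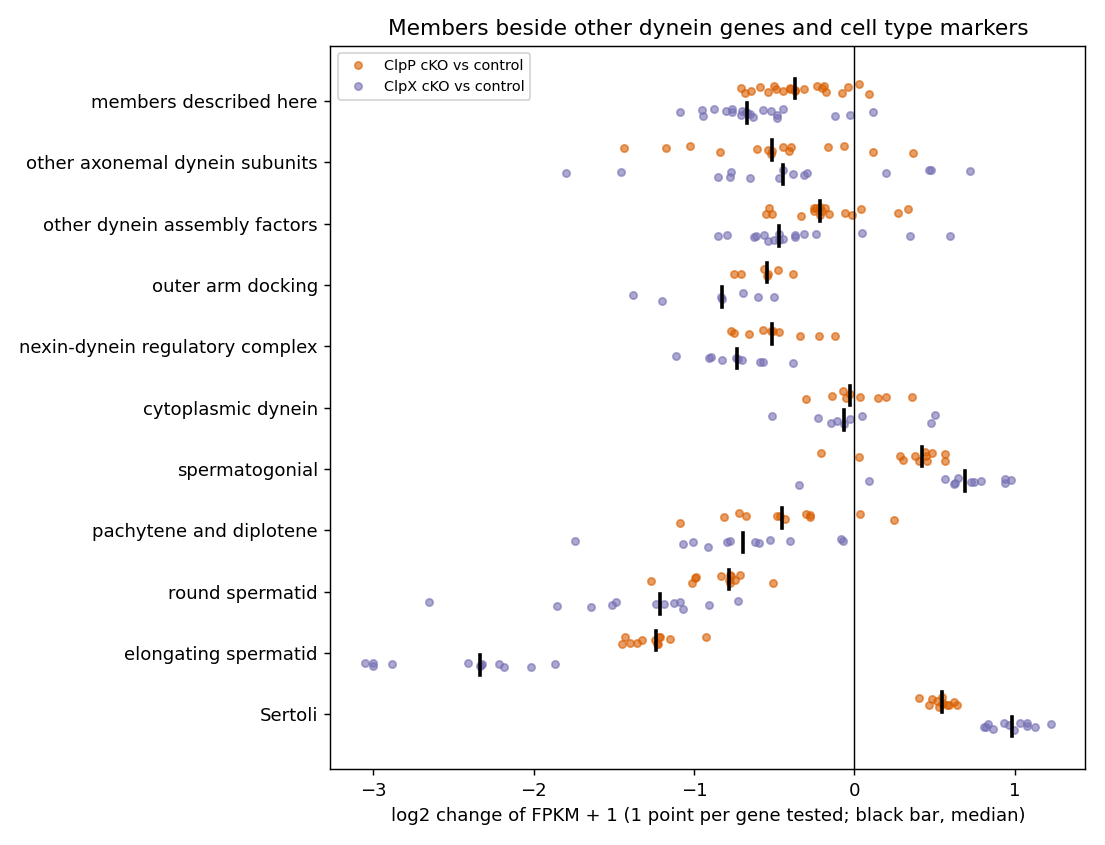
Log2 change of every tested gene in 11 lists, for ClpP cKO (upper row of each list) and ClpX cKO (lower row) against control, 1 point per gene with the median as a black bar. The dynein genes described here have medians of -0.37 and -0.67, near the pachytene and diplotene list (-0.45 and -0.70), with cytoplasmic dynein near 0, elongating spermatid markers at -1.24 and -2.33 and Sertoli markers at 0.54 and 0.98.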

How the data were processed

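The deposited table gives FPKM per gene and library, computed by the authors, with the gene length in bases in another deposited column (taken as an other value and used only to recover reads). The build is GRCm38 (mm10) per the submitters' processing notes; aligner, counter, strand setting and versions are not given in the sources used here. FPKM times gene length gave whole reads for 100% of values within 0.01 of a read step. The libraries' FPKM denominators were 0.919 (controls), 1.05 (ClpP cKO) and 1.07 (ClpX cKO) times their own totals of gene reads, so the deposited scale is not that of the totals; median-of-ratios scaling left it as it was.

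Values were tested as log2(FPKM + 1) with limma 3.58.1 (R 4.3.3, trended prior variance), two-sided, over the 17266 genes with a mean of at least 1 FPKM, with all 9 libraries in a model of group only. P-values were adjusted by Benjamini-Hochberg within each of 3 comparisons and called under 0.05. Fits were tested on simulated data. Tables were handled in Python 3.11.15 with pandas 2.3.3, numpy 2.4.6 and scipy 1.17.1. Alternatives were another pseudocount, other filters, 3 other scalings, limma voom on recovered reads, fewer libraries, protein-coding genes only, a replicate block, and libraries left out in turn. Leaving out Control 3 and ClpX cKO 1 together was added after seeing the data. Replicate libraries differed by a chi-square of 3.58 to 21.2 per degree of freedom, so none was counted as a duplicate. The 3 libraries per group share numbers in their titles, but same-numbered libraries did not deviate together in all pairs.

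All genes of the naming rule are accounted for; from other lists, up to 3 called genes with the smallest adjusted p in a comparison, plus Clpp and Clpx, may be named. Mcidas, Gmnc, Cdhr3, Sntn, Ccno, Ccdc78, Ruvbl1, Rpap3, Rfx2 and genes that overlap members are named outside this rule, after their values were seen. Tmem212 is named outside it too, to complete its list. The members, lists and markers were chosen with earlier results of these data known. Sequences are from RefSeq and transcript overlaps from GENCODE M21. At 14334436 to 17021685 gene reads a library, the tested genes had from 102 reads (Dnaaf2) to 47845 (Dnah8).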

Additional observations from a re-analysis of the deposited data

How the results depend on the processing

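Falls in ClpX cKO were steadier than those in ClpP cKO. Of the 18 calls in ClpX cKO 13 held under all 20 alternatives, against 2 of the 11 in ClpP cKO, Dnaaf3 and Dnaic2. The members called lower in ClpP cKO (11) were 3 under quantile normalization, 4 on the own-total scale, 6 under voom and 4 to 14 when single libraries were left out. Over all 17266 genes tested, calls in either direction were 6675, 8396, 8781 and 3617 to 8729 in these settings, against 7722 as deposited. Of those all-gene calls, 58.5%, 71.4%, 70.1% and 43.7% to 47.8% were higher in the same order, against 46.3% as deposited. With only the 6 libraries compared, all 11 were kept, and Dnah1, Dnah2, Dnah3, Dnah7a and Dnah7c were added (limma adjusted p = 0.024, 0.037, 0.017, 0.0081 and 0.020). Members called higher were 1 (Dnaaf5) on the own-total scale and under voom in both knockouts, and 1 under quantile normalization in ClpX cKO. The median log2 change was -0.13 under quantile normalization and -0.19 on the own-total scale in ClpP cKO. In ClpX cKO it was -0.42 under quantile normalization, -0.46 on the own-total scale and -0.48 under voom. These scalings also moved the median of all genes. Between ClpX cKO and ClpP cKO, members called lower were 1 under voom, 0 to 15 with single libraries left out, and 16 without Control 3 and ClpX cKO 1 together. Over all genes, calls in either direction were 828, 0 to 4758 and 5149 in these settings. The cause of these shifts was not tested.

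Directions turned only for values that were not called. For Dnah8 in ClpP cKO the log2 change was 0.37 under quantile normalization, 0.11 on the own-total scale, 0.11 under voom, and -0.31 to 0.049 with single libraries left out. Under quantile normalization Dnah1 was at 0.041 and Dnah2 at 0.037 in ClpP cKO. Dnaaf2 was at 0.085 in ClpP cKO and 0.032 in ClpX cKO on the own-total scale, at 0.12 and 0.055 under voom, and at -0.11 to 0.046 in ClpP cKO with single libraries left out. Dnal1 in ClpX cKO was at 0.17 on the own-total scale, 0.19 under voom and -0.052 to 0.0012 with single libraries left out, and in ClpP cKO at -0.011 to 0.064. Dnaaf5 between ClpX cKO and ClpP cKO ranged over -0.029 to 0.072.

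Whether the replicate numbers pair the libraries was not settled. Of the same-numbered pairs, 4 of 9 correlated above 0.1 (range -0.07 to 0.23), and differently numbered pairs ranged from -0.24 to 0.11. With the replicate number as a block, 12 members were called lower in ClpP cKO (Dnah3 was added, limma adjusted p = 0.036), 18 in ClpX cKO and 0 between the knockouts. Depth limits Dnah5, Dnah9 and Dnah11, at 18 to 229 reads a library.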
